A study of Mus musculus with 40 samples.

Results

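RNA of the TGF-β ligands, their receptors and Smads, and of the TGF-β-induced matrix protein was followed across 39 primary mammary tumors. The 9 genes were taken by symbol from the RNA-sequencing table of 14318 genes: the ligands Tgfb1, Tgfb2 and Tgfb3, the receptors Tgfbr1 and Tgfbr2, the coreceptor Tgfbr3, the signal transducer Smad3, the inhibitor Smad7, and Tgfbi. All 9 were present, and each had reads in every tumor. The tumors grew in female wild-type BALB/c mice, mated at 8 weeks of age and lactating, after luciferase-expressing 4T1 or 66cl4 mouse mammary tumor cells had been placed into the ducts of the third mammary glands. Within either model, mice stayed untreated or received i.p. anti-PD-1 (200 µg weekly, clone RMP1-14), chitin particles (1 mg every 3 days) or both (the combination, chitin + anti-PD-1) from week 3, and tumors were collected at 5 w p.i. There were 5 tumors per group, apart from 4 untreated 4T1 tumors, since untreated 4T1 tumor 3 was set aside by the authors for RNA degradation and was not analysed here. All 8 groups share the intraductal route, the lactating host and the luciferase transgene, and each model is 1 cell line inoculated at its own cell number, so that a difference between models cannot be told apart from a difference between their experiments. The study measured TGF-β1 protein in tumor lysates, and the RNA addresses whether the ligand, its receptors or its effectors differed with treatment or model.

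TGF-β ligands are secreted in a latent form, held in the matrix by latent TGF-β-binding proteins until integrins or proteases release them. The free ligand binds the type II receptor TGFBR2, which recruits and phosphorylates the type I receptor TGFBR1, and the coreceptor betaglycan (TGFBR3) presents ligand to this pair. TGFBR1 then phosphorylates SMAD2 and SMAD3, which enter the nucleus with SMAD4 and switch on target genes, among them Smad7, whose product inhibits the receptor, and Tgfbi, which encodes a secreted matrix protein. In mammary tumors the pathway is known for slowing epithelial growth early and for driving matrix deposition, epithelial-mesenchymal transition and suppression of lymphocytes later.

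Expression is given as the variance-stabilized value (VST value) deposited by the authors, a log2-like scale on which 6.05 stands for 0 reads. Recovered totals ran from 5105898 to 14800352 reads per tumor. In 66cl4 tumors the median depth was 6064018 reads without treatment, 6166518 after anti-PD-1, 10250227 after chitin and 8985408 after the combination. In 4T1 tumors it was 6295440, 6164483, 8759930 and 6504793 reads, in the same order. The epithelial markers Epcam, Krt18, Krt14 and Cdh1 had 52 to 15838 reads in 4T1 tumors and 2 to 355 reads in 66cl4 tumors, whereas Krt8 had at least 2447 reads in every tumor of either model. Since these are bulk tumors, fewer cells of a type and less RNA per cell cannot be told apart. The labels tie the tumors to no mouse, and glands were inoculated as a pair, so tumors of 1 group may come from the same mouse. P-values measure the spread between tumors, and would be too small where tumors share a mouse.

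Per kilobase of exon, Tgfb1 was the most abundant of the 3 ligands, and its mean was similar in both models (696 ± 115 normalized reads per kb in 4T1, SD, n = 19, and 698 ± 66.3 in 66cl4, n = 20). Tgfb3 reached 345 ± 99.5 and 153 ± 27.1 normalized reads per kb. Tgfb2 was near the bottom of the table, with 14.8 ± 6.63 and 5.98 ± 1.85 normalized reads per kb, resting on 15 to 159 reads per tumor. Among 13720 genes with an exon length, Tgfb1 stood at percentile 94.9 in 4T1 and 95.5 in 66cl4, and Tgfb2 at percentile 17.6 and 13.2. The receptors were ordered differently in the 2 models. In 66cl4 tumors Tgfbr2 (615 ± 87.1 normalized reads per kb) lay above Tgfbr3 (165 ± 27.9) and Tgfbr1 (106 ± 13.2). In 4T1 tumors Tgfbr2 was again the highest of these (257 ± 82.3 normalized reads per kb), but Tgfbr1 (176 ± 25.1) stood above Tgfbr3 (42.9 ± 17.5). Smad3 had 253 ± 70.5 normalized reads per kb in 4T1 and 585 ± 76.6 in 66cl4, its inhibitor-encoding counterpart Smad7 123 ± 32.2 and 88 ± 14, and Tgfbi 933 ± 352 and 353 ± 127.

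**Figure D1:**
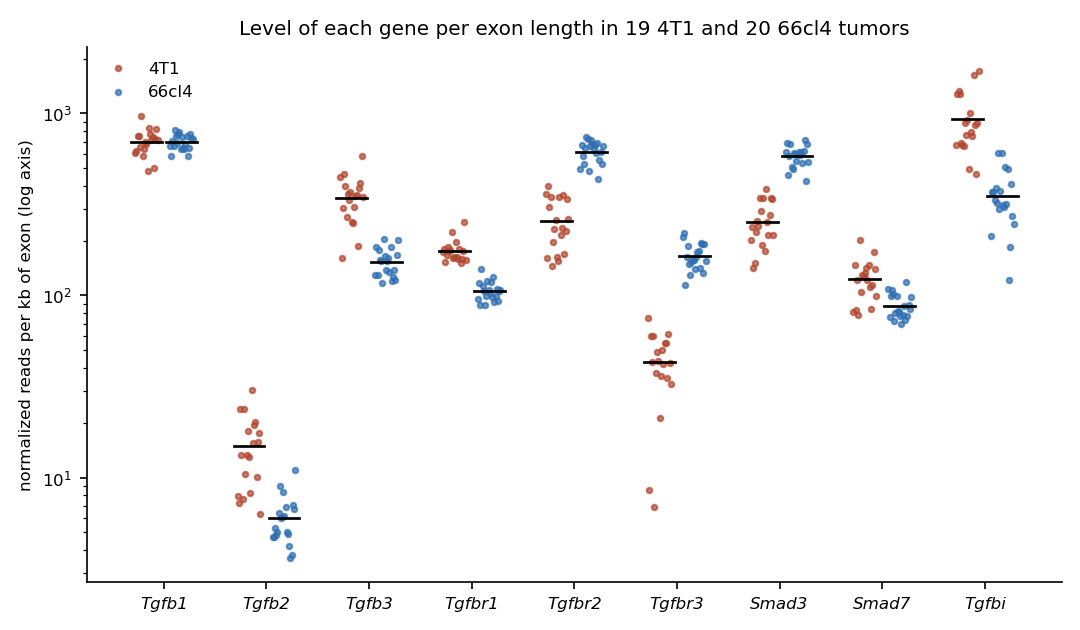
Normalized reads per kilobase of exon (log axis) for each of the 9 genes, 1 point per tumor, with 19 4T1 tumors in red and 20 66cl4 tumors in blue, and black bars at the means. Tgfb1 points of both models lie together around 696 normalized reads per kb, Tgfb2 is lowest in both models, and Tgfbr2, Tgfbr3 and Smad3 lie higher in 66cl4.

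The promoters of the most abundant ligand (Tgfb1), the low ligand Tgfb2, a gene higher in 66cl4 (Tgfbr2) and one higher in 4T1 (Tgfbi) are shown to let their letters be compared. RefSeq promoter entries (GRCm38.p6, the mm10 build) were found for 6 of the 9 genes. Each line gives the 250 bases before the RefSeq start, 5′ to 3′ on the gene's strand. Capitals mark CAGAC, the core of the Smad-binding element, TATAAA, the TATA box, GGGCGG, the GC box, and CACGTG, an E-box, each searched on both strands, and no marked match overlaps another.
Tgfb1 (chr7:25686752-25687001, plus strand): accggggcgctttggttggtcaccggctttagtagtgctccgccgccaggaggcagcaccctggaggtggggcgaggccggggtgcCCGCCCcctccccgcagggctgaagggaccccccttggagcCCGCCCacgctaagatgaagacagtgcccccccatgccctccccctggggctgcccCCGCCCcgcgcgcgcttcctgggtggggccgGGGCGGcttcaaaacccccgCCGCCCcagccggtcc
Tgfb2 (chr1:186705990-186706239, minus strand): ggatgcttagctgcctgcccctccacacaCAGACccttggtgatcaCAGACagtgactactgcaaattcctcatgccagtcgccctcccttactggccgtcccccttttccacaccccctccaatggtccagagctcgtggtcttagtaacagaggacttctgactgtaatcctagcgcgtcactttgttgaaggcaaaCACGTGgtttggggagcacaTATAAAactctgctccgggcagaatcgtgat
Tgfbr2 (chr9:116175364-116175613, minus strand): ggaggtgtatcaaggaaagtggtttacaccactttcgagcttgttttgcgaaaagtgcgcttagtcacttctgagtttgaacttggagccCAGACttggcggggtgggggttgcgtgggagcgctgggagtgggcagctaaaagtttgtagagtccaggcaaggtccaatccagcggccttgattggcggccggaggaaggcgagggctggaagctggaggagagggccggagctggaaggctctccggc
Tgfbi (chr13:56609336-56609585, plus strand): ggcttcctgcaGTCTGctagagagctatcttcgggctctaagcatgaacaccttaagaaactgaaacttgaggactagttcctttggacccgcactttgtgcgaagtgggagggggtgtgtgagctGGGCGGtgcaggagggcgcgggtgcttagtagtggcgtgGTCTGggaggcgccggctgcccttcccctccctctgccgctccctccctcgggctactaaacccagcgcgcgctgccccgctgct

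The Tgfb1 window held 5 GC boxes and none of the other motifs, and 75.2% of its bases were G or C, against a median of 52.4% over 32851 promoters. The Tgfb2 window held 2 CAGAC, 1 TATAAA that begins 31 bases before the start and 1 E-box, at 53.6% G or C, and it lies inside the annotated span of the gene rather than at its outer end. The Tgfbr2 window held 1 CAGAC, and that of Tgfbi 2 CAGAC and 1 GC box. Of windows of this length over all promoters, 42.2% held CAGAC, 12.4% TATAAA, 32.7% GGGCGG and 6.02% CACGTG, so that CAGAC and the GC box are common letters and a match is only a description of the letters.

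Between models, 8 of the 9 genes differed in untreated tumors by limma (Benjamini-Hochberg adjusted p under 0.05), a comparison in which 55.8% of all genes were called. Tgfb2, Tgfb3, Tgfbr1, Smad7 and Tgfbi were higher in 4T1, where 28.7% of all genes were higher. Tgfbr2, Tgfbr3 and Smad3 were lower in 4T1, where 27.1% of all genes were lower. Tgfb1 was the exception. The values of 4 4T1 and 5 66cl4 tumors did not overlap for 6 of the 9 genes, against 43.1% of all genes. The same 8 genes differed in the same direction in the mean over the 4 treatment groups (19 against 20 tumors), where 78.8% of all genes were called (40.8% higher and 38.0% lower), and 4 of the 9 (Tgfbr1, Tgfbr2, Tgfbr3 and Smad3) did not overlap, against 17.9% of all genes. The count and the split therefore stand against a background in which most genes differ. The median absolute difference of the 9 genes in untreated tumors was 0.96, beside 0.289 over all genes.

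**Figure D2:**
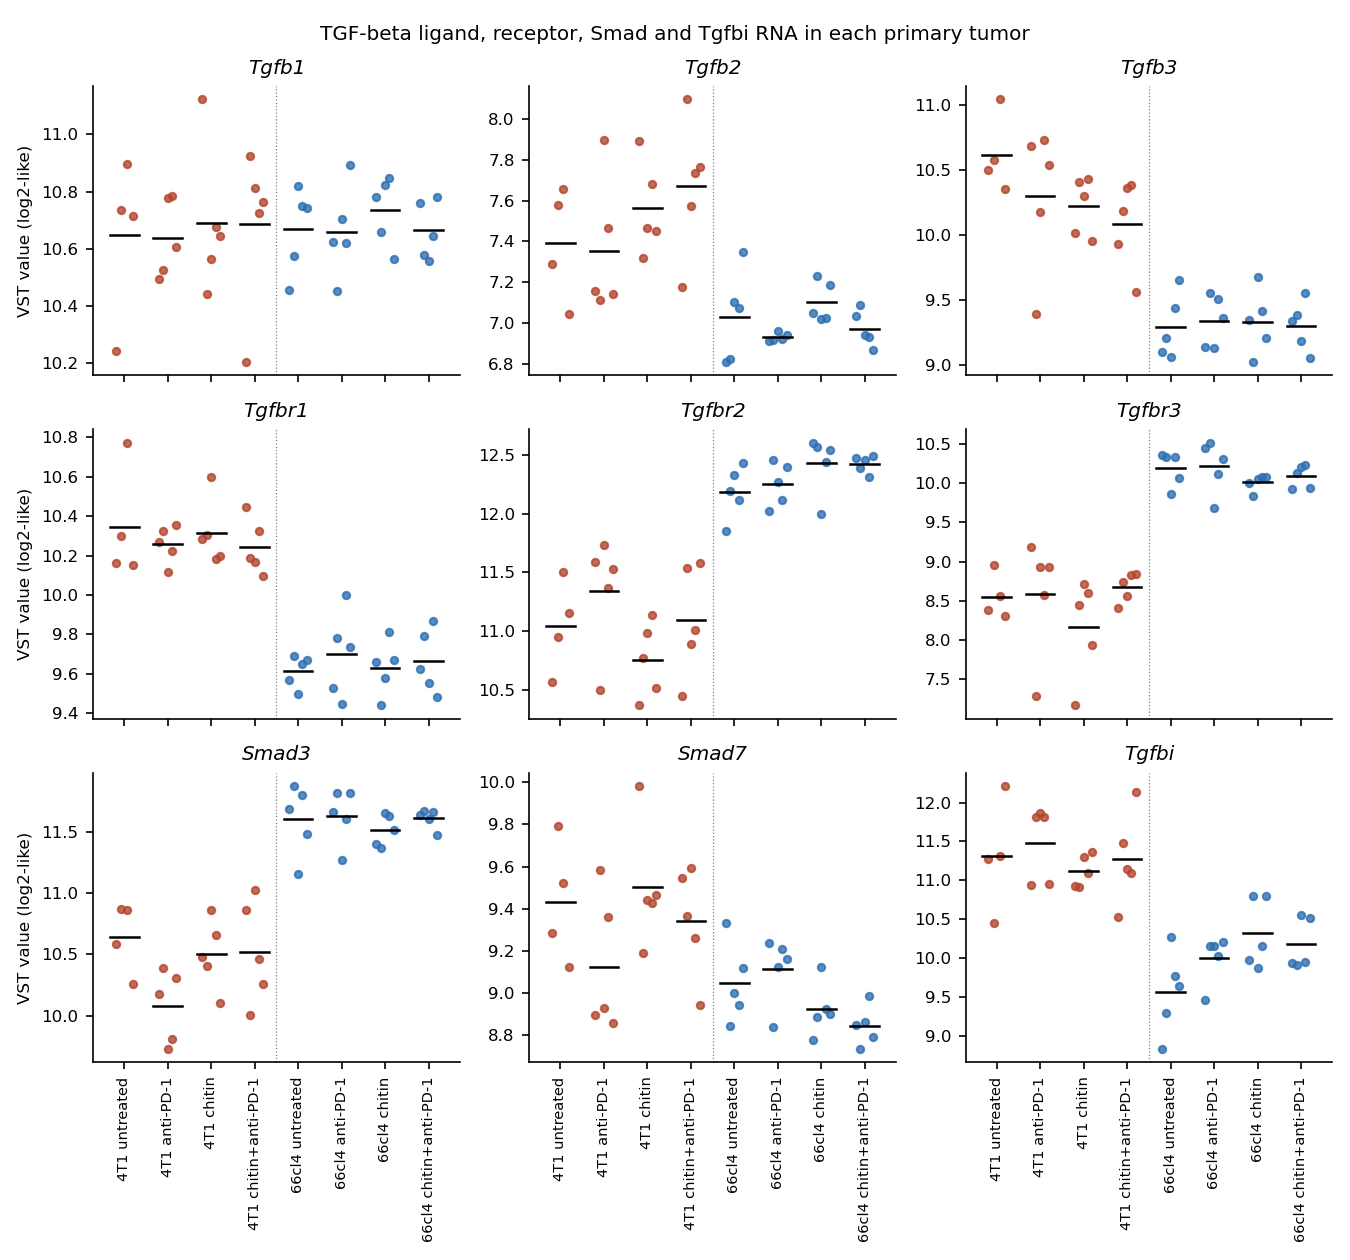
VST value (log2-like) of each gene in each tumor, by group, with 4T1 in red and 66cl4 in blue, points for tumors in order of their number and black bars for group means. Tgfbr1, Tgfbr2, Tgfbr3 and Smad3 separate the models without overlap over all 39 tumors, and Tgfb1 does not separate them. Within a model, each treated group overlaps the untreated group for every gene.

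Tgfb1 (Entrez 21803, chromosome 7, bases 25687002 to 25705077), which encodes the ligand measured as protein in the study, read 10.24, 10.73, 10.89 and 10.71 in untreated 4T1 tumors 1, 2, 4 and 5 and 10.46, 10.57, 10.82, 10.75 and 10.74 in untreated 66cl4 tumors. The 4T1 range covers the 66cl4 range, with 4T1 tumor 1 the lowest of the 9 values. The difference of 4T1 minus 66cl4 was -0.021 (SE 0.128, adjusted p = 0.897) with a 95% interval of -0.28 to 0.24, and over all treatments it was -0.016 (SE 0.0614, adjusted p = 0.813) with an interval of -0.14 to 0.11. Both intervals stayed within 0.3 of 0 on this scale, and they do not show that the levels are equal. Over the 8 groups the means of Tgfb1 ran from 10.64 in anti-PD-1-treated 4T1 to 10.73 in chitin-treated 66cl4 tumors. No step between neighbouring groups in that order was as large as their SDs.

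Tgfb3 (Entrez 21809, chromosome 12, bases 86056743 to 86079041), the ligand known for palate and mammary development, read 10.5, 10.58, 11.04 and 10.36 in untreated 4T1 and 9.1, 9.21, 9.06, 9.44 and 9.65 in untreated 66cl4 tumors. Every 4T1 value lay above every 66cl4 value. The difference was 1.32 (SE 0.199, adjusted p = 8.91e-07), a 2.88-fold ratio of mean normalized reads, and 0.99 (SE 0.095, adjusted p = 1.7e-11) over all treatments, with 17 of 19 4T1 tumors above all 20 66cl4 tumors. The annotation places exons of other genes on the opposite strand over 163 and 257 of its 3383 exon bases, and the authors counted by strand.

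Tgfb2 (Entrez 21808, chromosome 1, bases 186622787 to 186709697), the third ligand, was also higher in 4T1 but at far lower counts. It read 7.29, 7.58, 7.66 and 7.05 in untreated 4T1 tumors (25 to 100 reads) and 6.81, 6.82, 7.1, 7.07 and 7.35 in untreated 66cl4 tumors (15 to 43 reads). The ranges overlap, since 66cl4 tumor 5 lay above 4T1 tumors 1 and 5. The untreated difference of 0.36 (SE 0.148, adjusted p = 0.0379), a 1.92-fold ratio of normalized reads, was lost without untreated 4T1 tumor 2 or 4 (adjusted p = 0.119 and 0.151), without untreated 66cl4 tumor 1 or 2 (0.0985 and 0.096), and with median centring (0.0533), quantile normalization (0.176) or only the untreated groups fitted (0.0601). Over all alternatives the adjusted p ran from 0.0106 to 0.176. Over all treatments it was 0.48 (SE 0.0709, adjusted p = 1.71e-07), a 2.48-fold ratio, and it kept its call in each alternative that tested it (adjusted p from 1.45e-08 to 2.84e-05).

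Tgfbr1 (Entrez 21812, chromosome 4, bases 47353222 to 47414926), the type I receptor kinase, read 10.16, 10.3, 10.77 and 10.15 in untreated 4T1 and 9.57, 9.69, 9.5, 9.65 and 9.67 in untreated 66cl4 tumors. All 19 4T1 tumors lay above all 20 66cl4 tumors when every treatment was counted. The untreated difference was 0.73 (SE 0.112, adjusted p = 1.23e-06), a 1.82-fold ratio, and over all treatments it was 0.64 (SE 0.0536, adjusted p = 5.46e-13).

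Tgfbr2 (Entrez 21813, chromosome 9, bases 116087695 to 116175363), the ligand-binding type II receptor, went the other way. It read 10.57, 10.95, 11.5 and 11.15 in untreated 4T1 tumors and 11.85, 12.19, 12.33, 12.11 and 12.43 in untreated 66cl4 tumors. No 4T1 tumor of any treatment reached the lowest 66cl4 tumor. The untreated difference was -1.14 (SE 0.211, adjusted p = 2.69e-05), so that 66cl4 had 2.23 times the normalized reads of 4T1, and over all treatments it was -1.26 (SE 0.101, adjusted p = 1.6e-13). Tgfbr3 (Entrez 21814, chromosome 5, bases 107106567 to 107289629), the betaglycan coreceptor, showed the largest ratio of the 9 genes, with 8.39, 8.95, 8.57 and 8.31 in untreated 4T1 and 10.36, 10.34, 9.86, 10.34 and 10.06 in untreated 66cl4 tumors. Its difference was -1.64 (SE 0.258, adjusted p = 2.1e-06), or 4.04 times the normalized reads in 66cl4, and -1.63 (SE 0.124, adjusted p = 3.86e-14) over all treatments. Across 4T1 tumors Tgfbr3 was also the most variable receptor, from 39 reads in anti-PD-1-treated tumor 2 and 44 reads in chitin-treated tumor 1 up to 488 reads. A second annotated gene on the same strand shares 297 of the 6545 exon bases of Tgfbr3, and reads there cannot be assigned to one of them with certainty.

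Smad3 (Entrez 17127, chromosome 9, bases 63646766 to 63757994), the receptor-activated transcription factor of the pathway, was lower in 4T1. It read 10.59, 10.87, 10.86 and 10.26 in untreated 4T1 and 11.69, 11.88, 11.16, 11.8 and 11.49 in untreated 66cl4 tumors. These values did not overlap, nor did those of all 39 tumors. The untreated difference was -0.96 (SE 0.175, adjusted p = 2.2e-05), or 2.03 times the normalized reads in 66cl4, and over all treatments it was -1.15 (SE 0.084, adjusted p = 1.28e-14). Smad7 (Entrez 17131, chromosome 18, bases 75367365 to 75395935), which encodes the inhibitory Smad, read 9.28, 9.79, 9.52 and 9.12 in untreated 4T1 and 9.33, 8.85, 9.0, 8.94 and 9.12 in untreated 66cl4 tumors. The 2 ranges overlap. Its untreated difference of 0.38 (SE 0.149, adjusted p = 0.0292) was lost without untreated 4T1 tumor 2 or 4 (adjusted p = 0.16 and 0.0711), without untreated 66cl4 tumor 2 or 4 (0.0756 and 0.0588) and with median centring (0.0528). Over all alternatives the adjusted p ran from 0.0106 to 0.16. Over all treatments the Smad7 difference was 0.37 (SE 0.0713, adjusted p = 2.1e-05), with 11 of 19 4T1 tumors above every 66cl4 tumor, and it kept its call in every alternative.

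Tgfbi (Entrez 21810, chromosome 13, bases 56609586 to 56639359), the secreted matrix protein named for its induction by TGF-β, had the largest untreated difference of the 9 genes in favour of 4T1. It read 11.27, 10.45, 11.31 and 12.21 in untreated 4T1 and 8.83, 9.29, 10.27, 9.77 and 9.64 in untreated 66cl4 tumors. The groups did not overlap, although either spanned over 1 unit of the scale. The difference was 1.75 (SE 0.301, adjusted p = 8.54e-06), a 3.96-fold ratio, and over all treatments 1.29 (SE 0.144, adjusted p = 6.4e-10), with 17 of 19 4T1 tumors above every 66cl4 tumor.

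**Figure D3:**
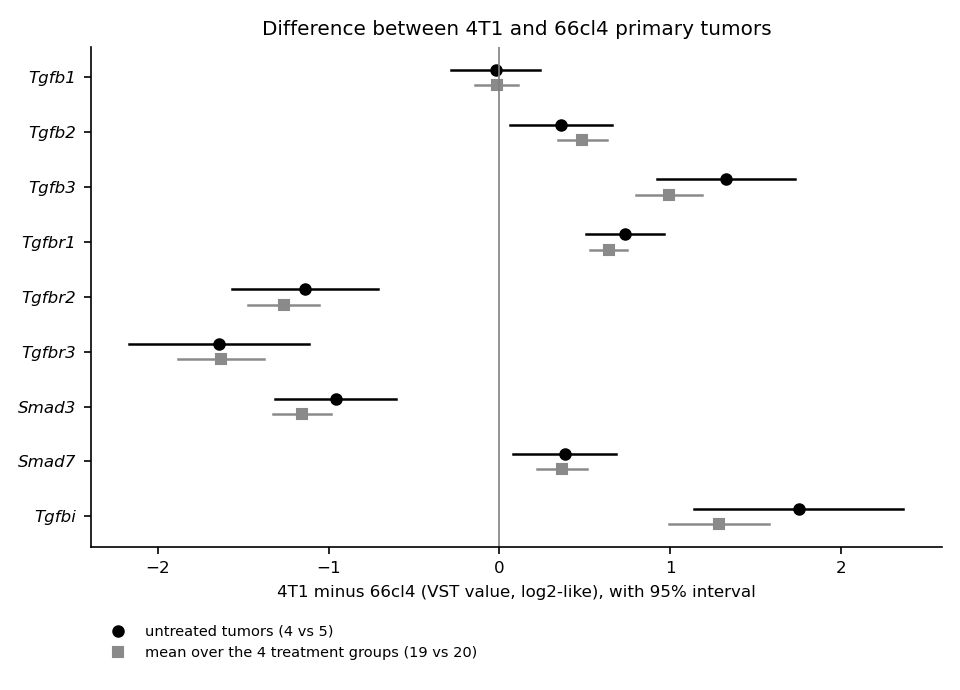
Difference of 4T1 minus 66cl4 in VST value (log2-like) for each gene, with 95% intervals, in untreated tumors (black circles, 4 against 5) and in the mean over the 4 treatment groups (grey squares, 19 against 20). Tgfbr2, Tgfbr3 and Smad3 lie below 0, the intervals of Tgfb1 include 0, and the other 5 genes lie above 0.

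Markers of cell types moved with the model as well, where 78.8% of all genes were called over all treatments. The 6 macrophage markers summed to 4135 to 27093 normalized reads in 4T1 and 21987 to 40437 in 66cl4 tumors, and 6 of 6 were lower in 4T1 over all treatments, as were Tgfbr2, Tgfbr3 and Smad3. The 5 epithelial markers summed to 13716 to 50122 normalized reads in 4T1 and 3366 to 5999 in 66cl4 tumors, with 5 of 5 higher in 4T1. Of the 6 fibroblast markers, 2 were higher (Col6a3 and Fap) and 2 lower (Pdgfra and Pdgfrb) in 4T1, and their sums overlapped (1178 to 12752 and 3174 to 6692 normalized reads). All 4 neutrophil markers in the table were higher in 4T1 over all treatments (median difference 1.29). Median sums were higher in 4T1 for T-cell (461 against 116), skeletal muscle (502 against 14.6) and adipocyte markers (639 against 273). For B-cell markers the median sum was lower in 4T1 (23.4 against 31.0). The part of these cell types in the differences of the 9 genes was not tested.

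Other genes of the pathway differed between untreated tumors too, where 28.7% of all genes were higher and 27.1% lower in 4T1. Of 13 genes of ligand latency and activation, 6 were higher and 2 lower in 4T1 (median difference 0.60, beside 0.016 over all genes). Those with the smallest p were Furin, the convertase that cleaves pro-TGF-β, at 1.28 (SE 0.16, adjusted p = 2.82e-08), the latent TGF-β-binding protein gene Ltbp3 at 1.53 (SE 0.254, adjusted p = 4.79e-06), Thbs1, which encodes the activator thrombospondin 1, at -1.63 (SE 0.271, adjusted p = 5.01e-06), and Nrros, which anchors latent TGF-β on myeloid cells, at -1.18 (SE 0.228, adjusted p = 5.03e-05). Of 10 further receptors and coreceptors, 3 were higher and none lower (median 0.10). They were endoglin (Eng), a coreceptor best known on endothelium, at 1.86 (SE 0.135, adjusted p = 8.37e-14), the type I receptor Acvrl1 at 0.37 (SE 0.118, adjusted p = 0.00881) and the BMP receptor Bmpr1a at 0.29 (SE 0.0991, adjusted p = 0.012). Acvr1, another type I receptor gene, had a difference of 0.16 (SE 0.0893, adjusted p = 0.128). Alongside, 3 of 5 endothelial markers were higher in untreated 4T1 tumors, where their sum was 1688 to 5453 normalized reads against 1524 to 2059 in 66cl4, and their part in the Eng difference was not tested.

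Of 15 other Smads and intracellular regulators in the table, 9 were higher and 3 lower in untreated 4T1 tumors (median 0.35). Over all genes, 28.7% were higher and 27.1% lower in that comparison. Zfyve9, which encodes the receptor-anchoring protein SARA, stood at 0.93 (SE 0.0851, adjusted p = 2.8e-11), the Smad corepressor Skil at 1.33 (SE 0.125, adjusted p = 4.89e-11), Pmepa1, an inhibitor of Smad phosphorylation, at 1.87 (SE 0.225, adjusted p = 1.33e-08) and Smad1, of the BMP branch, at 0.56 (SE 0.106, adjusted p = 3.12e-05). Of 12 other ligands and antagonists in the table, 7 were higher and 2 lower (median 0.98). Inhba, which encodes the activin A subunit, differed by 3.44 (SE 0.239, adjusted p = 2.86e-14), Inhbb, another activin subunit, by 1.5 (SE 0.188, adjusted p = 3e-08), the activin antagonist Fstl3 by 1.28 (SE 0.137, adjusted p = 9.62e-10) and Bmp4, a BMP ligand, by -2.77 (SE 0.129, adjusted p = 5.15e-19).

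Of 25 known target genes of TGF-β, 15 were higher and 2 lower in untreated 4T1 tumors (median 1.31), and 20 were higher and 3 lower over all treatments (median 1.41). Shares over all genes were 28.7% higher and 27.1% lower in untreated tumors, and 40.8% and 38.0% over all treatments. Beside Skil and Pmepa1, which this list shares with the regulators above, the called targets included the transcription factors Snai1 at 1.68 (SE 0.16, adjusted p = 6.92e-11) and Junb at 1.65 (SE 0.178, adjusted p = 1.14e-09), and over all treatments the matrix gene Tnc at 4.69 (SE 0.262, adjusted p = 8.18e-18). Several of the 25 targets answer to other signals as well, and some are matrix genes of fibroblasts.

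**Figure D4:**
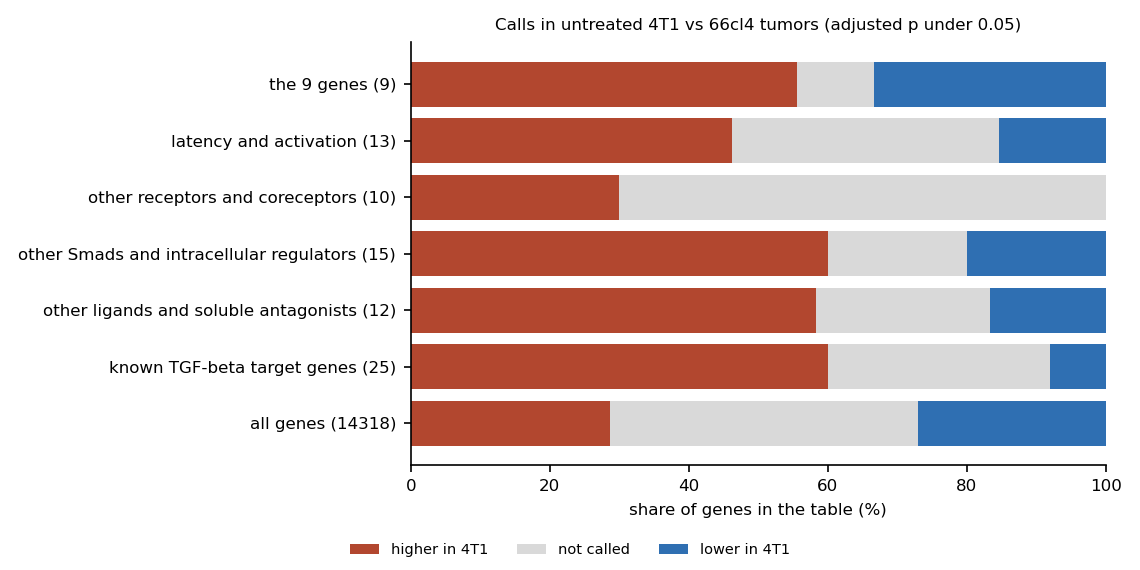
Share of genes (%) called higher in 4T1 (red), lower in 4T1 (blue) or not called (grey) in untreated 4T1 against 66cl4 tumors at an adjusted p under 0.05, for the 9 genes, the 5 pathway lists and all genes, with the number of genes in parentheses. The 25 target genes have 15 higher and 2 lower, whereas over all 14318 genes 28.7% were higher and 27.1% lower.

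No treatment difference of the 9 genes passed the threshold. In each of the 10 comparisons within a model (anti-PD-1, chitin and the combination each against untreated tumors, both groups given chitin against both groups without it, and the combination against chitin), 0 of 9 genes were called, and 0.0% of all genes were. limma gave an unadjusted p under 0.05 for 8.89, 2.77, 2.56, 7.28 and 3.11% of all genes in 4T1 and 5.36, 11.4, 10.6, 15.6 and 3.07% in 66cl4, in that order. Among the 9 genes, 10 of the 90 differences had an unadjusted p under 0.05, 2 in 4T1 and 8 in 66cl4. In each comparison the 2 sides overlapped for all 9 genes, so that 0 of 9 separated. Over all genes this share was, in the same order, 1.76, 0.74, 0.936, 0.00698 and 0.391% in 4T1 and 0.65, 1.68, 2.12, 0.0 and 0.817% in 66cl4.

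**Figure D5:**
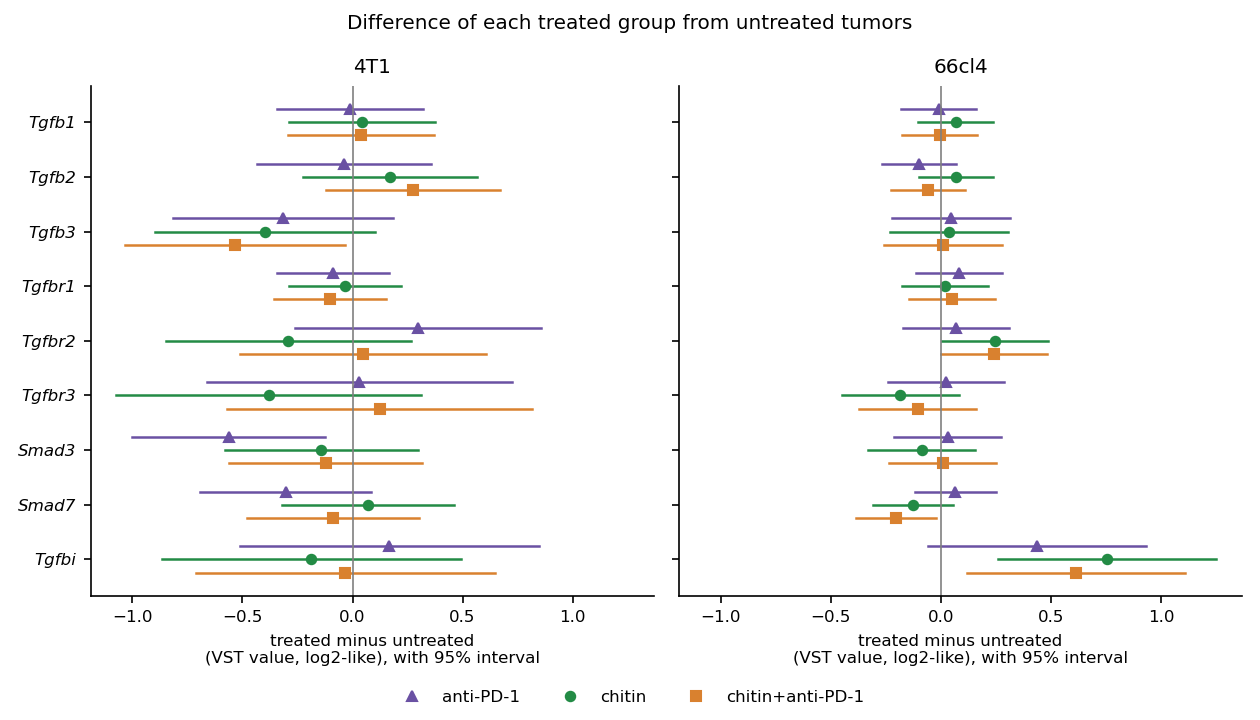
Difference from untreated tumors after anti-PD-1 (purple triangles), chitin (green circles) and the combination (orange squares) in VST value (log2-like), with 95% intervals, for each gene in 4T1 (left) and 66cl4 (right). Intervals of Tgfb1 cross 0 in all 6 comparisons. In 66cl4, those of Tgfbi and Tgfbr2 after chitin or the combination, and of Smad7 after the combination, do not. In 4T1, those of Smad3 after anti-PD-1 and of Tgfb3 after the combination do not. None of these differences passed the adjusted threshold.

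The group means of Tgfb1 RNA lay close together within either model. Untreated tumors averaged 10.65 ± 0.28 (SD, n = 4) in 4T1 and 10.67 ± 0.15 (n = 5) in 66cl4. In treated 4T1 tumors, Tgfb1 averaged 10.64 ± 0.14 after anti-PD-1, 10.69 ± 0.26 after chitin and 10.69 ± 0.28 after the combination. In treated 66cl4 tumors, Tgfb1 averaged 10.66 ± 0.16 after anti-PD-1, 10.73 ± 0.12 after chitin and 10.66 ± 0.10 after the combination. Its 10 treatment differences ran from -0.071 to 0.067, and all 95% intervals lay between -0.34 and 0.38. These intervals do not show that Tgfb1 RNA was the same in all groups. In combination-treated 4T1 tumors the values were 10.2, 10.93, 10.81, 10.72 and 10.76, of which tumor 1 stood below the other 4.

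Tgfb3 had its largest treatment difference in 4T1 tumors that received both agents. Its values there were 9.93, 10.19, 10.36, 10.38 and 9.57, against 10.5, 10.58, 11.04 and 10.36 in untreated tumors. The lowest untreated value lay below 2 of the 5 treated ones. The difference was -0.53 (SE 0.237, adjusted p = 1), and with chitin alone it was -0.40 (SE 0.237, adjusted p = 1) and with anti-PD-1 alone -0.32 (SE 0.237, adjusted p = 0.705). These 3 comparisons share the untreated tumors. In anti-PD-1-treated 4T1 tumors Tgfb3 read 10.68, 9.39, 10.17, 10.73 and 10.54, with tumor 2 the lowest, and the difference was -0.087 without that tumor and -0.17 without untreated tumor 4. Without the latter, that of chitin was -0.26. Neutrophil markers moved beside Tgfb3 after the combination, where 4 of 4 had a positive difference (3 with an unadjusted p under 0.05, median 0.99). Their sum was 729 to 8185 normalized reads against 583 to 1074 in untreated tumors. These markers were 4 of 4 positive after anti-PD-1 (median 0.24) and 4 of 4 negative after chitin (median -0.32). In either comparison 0 of the 4 had an unadjusted p under 0.05. The part of neutrophils in the Tgfb3 values was not tested. In 66cl4 the means of Tgfb3 stayed between 9.29 and 9.34 over the 4 groups. Tgfb2 averaged 7.39 ± 0.28 in untreated 4T1 tumors. In treated 4T1 tumors, Tgfb2 averaged 7.36 ± 0.33 after anti-PD-1, 7.56 ± 0.23 after chitin and 7.67 ± 0.33 after the combination. None of its differences had an unadjusted p under 0.05. In 66cl4 its untreated mean was 7.03 ± 0.22 and its treated means ran from 6.93 to 7.1.

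Of the receptors, Tgfbr1 was the steadiest. Its 10 treatment differences ran from -0.10 to 0.085, with group means of 10.24 to 10.35 in 4T1 and 9.61 to 9.7 in 66cl4. Tgfbr2 in 66cl4 read 12.6, 12.57, 12.0, 12.44 and 12.54 after chitin and 12.48, 12.38, 12.46, 12.31 and 12.49 with the combination, against 11.85, 12.19, 12.33, 12.11 and 12.43 in untreated and 12.02, 12.45, 12.27, 12.12 and 12.4 in anti-PD-1-treated tumors. All groups overlap, and chitin-treated tumor 3 is the lowest of the 10 chitin-containing tumors. The groups given chitin differed from the others by 0.21 (SE 0.0814, adjusted p = 0.229). In treated 4T1 tumors, Tgfbr2 averaged 11.34 ± 0.49 after anti-PD-1, 10.75 ± 0.32 after chitin and 11.09 ± 0.47 after the combination. The untreated mean there was 11.04 ± 0.39, and the chitin-containing difference in 4T1 was -0.27 (SE 0.182, adjusted p = 0.802). In that 4T1 comparison 6 of 6 macrophage markers (4 with an unadjusted p under 0.05, median -0.61) and 5 of 5 T-cell markers (5 with one, median -0.53) had a negative difference too, and their part in the Tgfbr2 values was not tested. Tgfbr3 averaged 8.55 ± 0.29 in untreated 4T1 and 10.19 ± 0.22 in untreated 66cl4 tumors. In treated 4T1 tumors, Tgfbr3 averaged 8.58 ± 0.75 after anti-PD-1, 8.17 ± 0.64 after chitin and 8.68 ± 0.19 after the combination. In treated 66cl4 tumors, Tgfbr3 averaged 10.22 ± 0.33 after anti-PD-1, 10.01 ± 0.10 after chitin and 10.09 ± 0.14 after the combination. None of its treatment differences had an unadjusted p under 0.05, and the 4T1 groups with SDs of 0.75 and 0.64 each held 1 low tumor, at 7.29 (anti-PD-1-treated tumor 2) and at 7.17 (chitin-treated tumor 1).

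Smad3 had the smallest p in 4T1, with anti-PD-1 alone. It read 10.18, 10.39, 9.73, 9.81 and 10.3 in anti-PD-1-treated 4T1 tumors, against 10.59, 10.87, 10.86 and 10.26 in untreated ones. The lowest untreated tumor lay below 2 of the 5 treated tumors. The difference was -0.56 (SE 0.209, adjusted p = 0.516), in a comparison where 8.89% of all genes had an unadjusted p under 0.05. With chitin it was -0.14 (SE 0.209, adjusted p = 1) and with the combination -0.12 (SE 0.209, adjusted p = 1). The T-cell marker sum was 613 to 1568 normalized reads in anti-PD-1-treated and 236 to 861 in untreated 4T1 tumors (5 of 5 markers positive, 4 with an unadjusted p under 0.05, median difference 0.71). Adipocyte markers moved further in this comparison, with 5 of 5 positive (4 with an unadjusted p under 0.05, median 1.73) and sums of 46.8 to 7756 against 175 to 613 normalized reads. The 2 lactating-gland markers in the table (median 1.97) and the 2 B-cell markers (median 1.00) were positive as well, each with an unadjusted p under 0.05. The part of these cell types in the Smad3 values was not tested. In 66cl4 the Smad3 means ran from 11.52 to 11.63.

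Smad7 had the smallest adjusted p of the 9 genes within a model. In 66cl4 it read 8.78, 8.89, 9.13, 8.92 and 8.9 after chitin and 8.85, 8.74, 8.86, 8.99 and 8.79 with the combination. It read 9.33, 8.85, 9.0, 8.94 and 9.12 in untreated and 9.24, 8.84, 9.12, 9.21 and 9.16 in anti-PD-1-treated 66cl4 tumors. Of these 10 tumors without chitin, 4 lie above all 10 tumors given chitin, and the other 6 overlap with them. The groups given chitin differed from the others by -0.20 (SE 0.0619, adjusted p = 0.154), or 0.834 times the normalized reads, in a comparison where 15.6% of all genes had an unadjusted p under 0.05. In 4T1 the Smad7 means were 9.43 ± 0.29 untreated, 9.13 ± 0.33 after anti-PD-1, 9.5 ± 0.29 after chitin and 9.34 ± 0.26 with both. Smad7 thus had its lowest 4T1 mean with anti-PD-1 and its lowest 66cl4 mean with the combination, neither past the threshold.

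Tgfbi had the largest treatment difference of the 9 genes, in 66cl4. It read 8.83, 9.29, 10.27, 9.77 and 9.64 in untreated tumors and 9.45, 10.15, 10.15, 10.02 and 10.21 after anti-PD-1. With chitin it read 9.97, 10.79, 9.87, 10.15 and 10.8, and with the combination 9.94, 9.91, 10.56, 9.95 and 10.52. Untreated tumor 1 was the lowest of the 20 tumors, and untreated tumor 3 lay within the range of every treated group but anti-PD-1. Chitin differed from untreated by 0.76 (SE 0.238, adjusted p = 0.236), a 1.78-fold ratio of normalized reads, the combination by 0.62 (SE 0.238, adjusted p = 0.375) and anti-PD-1 by 0.44 (SE 0.238, adjusted p = 0.911). All 3 comparisons share the untreated tumors, and without untreated tumor 1 the anti-PD-1 difference was 0.25. In 4T1 the Tgfbi means were 11.31 ± 0.72 untreated, 11.48 ± 0.49 after anti-PD-1, 11.12 ± 0.21 after chitin and 11.28 ± 0.59 with both agents.

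Depth and macrophage markers moved with these 66cl4 groups. The 6 macrophage markers summed to 21987 to 31588 normalized reads (median 29439) in untreated, 27249 to 38684 (median 32240) in anti-PD-1-treated, 31989 to 36521 (median 34330) in chitin-treated and 32981 to 40437 (median 34397) in combination-treated tumors. Of these markers, 3 of 6 had an unadjusted limma p under 0.05 for the chitin-containing groups in 66cl4, where 15.6% of all genes had one. Of the 6, 5 had a positive and 1 a negative difference there (median 0.22). Against untreated 66cl4 tumors, 6 of 6 were positive after chitin (4 with an unadjusted p under 0.05, median 0.34). The same held after the combination (5 with one, median 0.37) and after anti-PD-1 (1 with one, median 0.15). Over all genes, 11.4, 10.6 and 5.36% had such a p in these comparisons. Of 5 T-cell markers, 5 were positive after chitin (3 with such a p) and after anti-PD-1 (2 with one). The part of these markers in the Tgfbi, Tgfbr2 and Smad7 values was not tested. With all tumors thinned to the same depth and values taken as log2(normalized count + 1), a scale on which sizes cannot be set beside VST differences, those of the 66cl4 groups given chitin were 0.53 for Tgfbi (adjusted p = 0.219), 0.21 for Tgfbr2 (adjusted p = 0.242) and -0.26 for Smad7 (adjusted p = 0.184). The directions were those of the VST values, and none passed the threshold.

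Whether the effect of chitin (both groups given it against both without) differed between models was then tested. Unadjusted p was under 0.05 for 13.2% of all genes. Of all genes, 0.0978% (14 genes, 0.021% higher and 0.0768% lower in 4T1) passed this test and 0 of the 9 did. The 3 with the smallest p were Smad7 at 0.34 (SE 0.143, adjusted p = 0.283), Tgfbr2 at -0.48 (SE 0.202, adjusted p = 0.285) and Tgfbi at -0.66 (SE 0.288, adjusted p = 0.306), where a positive value means a more positive chitin-containing difference in 4T1. With a weight estimated for each tumor, Smad7 (0.45, adjusted p = 0.0169) and Tgfbr2 (-0.53, adjusted p = 0.0266) passed, in a fit that called 1004 of all genes. Over all alternatives the adjusted p ran from 0.0169 to 0.428 for Smad7 and from 0.0266 to 0.427 for Tgfbr2. Of 6 macrophage markers, 5 had an unadjusted p under 0.05 in the same comparison, all with a negative difference (median -0.85), as had 5 of 5 T-cell markers (median -0.64), and their part in these values was not tested. For Tgfb1 the difference was 0.0098 (SE 0.123, adjusted p = 0.983), with a 95% interval of -0.24 to 0.26.

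The other genes of the pathway gave 0 calls in any treatment comparison. For the chitin-containing groups, 7 of the 75 list entries (3 genes are entered in 2 lists) in 4T1 had an unadjusted p under 0.05, where 7.28% of all genes had one, and 12 of 75 in 66cl4, where 15.6% of all genes had one. These shares lie near those over all genes. In 66cl4 the target Snai2, a regulator of epithelial-mesenchymal transition, differed by 0.25 (adjusted p = 0.0961), the inhibitory Smad6 by -0.36 (adjusted p = 0.12) and Ltbp2, listed both as a latency gene and as a target, by -0.52 (adjusted p = 0.15). In 4T1 the activator gene Thbs1 differed by 0.57 (adjusted p = 0.58), the endothelial receptor gene Acvrl1 by -0.30 (adjusted p = 0.58) and the target Ccn2, a matricellular protein gene, by 0.71 (adjusted p = 0.59). Of the 25 targets, 19 had a positive and 6 a negative difference in 4T1 (median 0.098), and 9 a positive and 16 a negative one in 66cl4 (median -0.074), beside medians of 0.004 and 0.0026 over all genes. With anti-PD-1 against untreated in 4T1, 5 of 15 other Smads and regulators had an unadjusted p under 0.05, beside 8.89% of all genes. Of these 15, 2 had a positive and 13 a negative difference (median -0.22). In the latency, receptor, ligand and target lists, 1 of 13, 2 of 10, 1 of 12 and 2 of 25 had such a p. Of the 25 targets, 7 were positive and 18 negative there (median -0.22), and 5 and 20 after anti-PD-1 in 66cl4 (median -0.13).

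Within a model, some of the 9 genes varied together from tumor to tumor after group means had been subtracted (36 pairs per model, permutation tests with 100000 shuffles within groups, Benjamini-Hochberg adjusted). In 19 4T1 tumors the ligands Tgfb1 and Tgfb2 went together (Pearson r = 0.741, permutation p = 8e-04, adjusted 0.0209, Spearman rho = 0.777, permutation p = 4e-04, adjusted 0.0144, and r = 0.722 without the 2 tumors farthest from the median). The receptors Tgfbr2 and Tgfbr3 did so by r (0.728, permutation p = 0.00116, adjusted 0.0209), while rho missed the threshold (0.632, permutation p = 0.00429, adjusted 0.0772) and r was 0.58 without the 2 farthest tumors. In 20 66cl4 tumors Tgfbr3 went with Smad3 (r = 0.843, permutation p = 3e-04, adjusted 0.0108, rho = 0.768, permutation p = 0.00105, adjusted 0.0189, and r = 0.696 without the 2 farthest). Tgfb3 went with Tgfbr1 there (r = 0.675, permutation p = 0.00163, adjusted 0.0293, rho = 0.735, permutation p = 0.00102, adjusted 0.0189, and r = 0.845 without the 2 farthest). None of these pairs passed in both models, and whether the models differ in them was not tested.

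The genes of the table whose tumor-to-tumor pattern was most like each of the 9 were found by Pearson r over the 39 tumors after subtraction of group means. These are descriptions, since tumors share cell composition and depth, and they come from all genes of the table. Tgfb1 was most like Map7d1 (r = 0.778), Hic1 (0.743) and the integrin gene Itga5 (0.720), and Itga5 (0.824) with P3h3 (0.831) and Ddah1 (0.807) was also among those of Tgfb2. Tgfb3 was most like Mxd4 (0.859), and Tgfbr1 most like Rnf2 (0.742). Tgfbr2 was most like Nxpe5 (0.877), Zfp521 (0.872) and Nhsl2 (0.872). Tgfbr3 was most like Nacc2 (0.859) and had the coreceptor gene Nrp1 (0.790) among its 3. Smad3 was most like the phosphatase gene Ctdsp2 (0.786), Smad7 most like Itpr3 (0.812), and Tgfbi most like Arhgap24 (0.766), with the interleukin receptor gene Il4ra (0.749) next. Within each model r could differ. P3h3 with Tgfb2 had 0.904 in 4T1 and 0.383 in 66cl4, Hic1 with Tgfb1 0.818 and 0.457, and Nhsl2 with Tgfbr2 0.937 and 0.486. Map7d1 with Tgfb1 (0.773 and 0.793), Rnf2 with Tgfbr1 (0.709 and 0.796) and Ctdsp2 with Smad3 (0.773 and 0.825) were higher in 66cl4. None of the most alike genes belongs to the marker or pathway lists used here.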

How the data were processed

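RNA sequencing of 39 primary tumors was analysed from 1 table. The authors sequenced stranded paired-end libraries, aligned to mm10 with HISAT2, counted by strand with summarizeOverlaps, removed low genes and applied DESeq2's variance stabilization, which gave the deposited log2-like values. The annotation used for counting is not given in the sources used here. Values were tested as deposited. The shared lowest value, 6.05, fixes the transformation, so that reads and a size factor per tumor were recovered (100% of values whole within 0.001).

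Groups follow the labels. limma 3.58.1 in R 4.3.3 (eBayes with a mean-variance trend) was fitted over all 14318 genes, with 4 groups per model or with all 8 for model comparisons, and p-values were Benjamini-Hochberg adjusted (threshold 0.05). The fit was tested on simulated data. Difference, SE and adjusted p refer to these fits, and ratios to mean normalized reads. Exon lengths came from GENCODE vM21, positions and promoters from RefSeq GRCm38.p6. The 9 genes are all reported. Differences are named where called, otherwise the 3 with the smallest p, and the 4 with the smallest p per pathway list for the untreated models. For treatments a selection of these, chosen after their values were seen, is given. The genes and lists were chosen with earlier results of these data known. Alternatives were median centring, quantile normalization, a filter removing the lowest 25% of genes, no trend, tumor weights, limma-voom on recovered reads, equal read depth, the compared groups only, both models in 1 fit, the tumor number as a block, and leaving out each tumor.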

Additional observations from a re-analysis of the deposited data

Results flagged for a closer look

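Of 72 combinations of gene and group checked for a tumor standing apart from the rest of its group (Dixon's ratio at 95%), 4 had one, where chance gives about 1 in 20. Tgfb1 read 10.20 in combination-treated 4T1 tumor 1, while the other 4 lay between 10.72 and 10.93. Tgfbr2 read 12.00 in chitin-treated 66cl4 tumor 3, the deepest library, while the other 4 lay between 12.44 and 12.60. Smad7 read 8.84 in anti-PD-1-treated 66cl4 tumor 2, below the others at 9.12 to 9.24. Tgfbi read 9.45 in anti-PD-1-treated 66cl4 tumor 1, below the others at 10.02 to 10.21.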

How the results depend on the processing

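The count of the 9 genes called was 8 of 9 over all treatments and 0 of 9 in each treatment comparison under every alternative that tested them, apart from the filter on low genes, which left Tgfb2 untested. In untreated tumors the count was 6 to 8 when each tumor was left out in turn, and 6 to 8 in the other alternatives. The difference of chitin-containing effects between models gave 2 of the 9 genes (Smad7 and Tgfbr2) with tumor weights, and 0 otherwise. Without untreated 4T1 tumor 4, the sign of Tgfbr1 in combination-treated against untreated 4T1 tumors turned (-0.17 to 0.040 when leaving out each tumor, and -0.10 with all). The cause of these 2 changes was not tested. Over all genes, 14 differed in the effect of chitin between models, against 8 to 176 in the alternatives other than tumor weights (1004) and 0 to 677 when each tumor was left out (677 without anti-PD-1-treated 4T1 tumor 2). Calls over all genes within a model went from 0 to 80 for anti-PD-1 in 4T1 without that same tumor, to 25 for chitin and 269 for both groups given chitin in 66cl4 without untreated 66cl4 tumor 3, and with tumor weights to 960 for anti-PD-1 and 297 for both groups given chitin in 4T1 and 185 for the latter in 66cl4. With both models in 1 fit, 60 and 58 genes were called for these 2 comparisons in 4T1.

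The labels do not say that tumor numbers pair the tumors. Same-numbered tumors of different groups had a mean correlation of deviations of 0.0101 in 4T1 and 0.0618 in 66cl4, with some pairs below 0. Between tumors of other numbers the means were -0.000571 and -0.0145. Among up to 5 numbers, 4 of 19 4T1 and 10 of 20 66cl4 tumors correlated best with their own. With the tumor number as a replicate block, 8 of the 9 genes were called in untreated tumors, with Tgfb2 at 0.39 (adjusted p = 0.0362) and Smad7 at 0.38 (adjusted p = 0.0296), and 0 of 9 in each treatment comparison. Over all genes, the block moved the calls from 0 to 16 for the 66cl4 groups given chitin. For the difference in chitin effect between models, it moved them from 14 to 176. Whether tumor numbers pair the 66cl4 tumors was not settled. Groups of 4 or 5 tumors limit what could be detected, and the low reads of Tgfb2 limit its ratio.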
